A study of Arabidopsis thaliana with 10 samples.

Results

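The transcripts described here are those of WRKY and NAC transcription factors in Arabidopsis thaliana inflorescences. Members were chosen by gene symbol: probe sets with 1 gene whose symbol in the platform's gene table is WRKY or NAC followed by a digit. The rule found 7 of 22746 probe sets, or 7 of the 13513 that name 1 gene. There were 6 WRKY members, WRKY6 (AT1G62300), WRKY20 (AT4G26640), WRKY22 (AT4G01250), WRKY42 (AT4G04450), WRKY47 (AT4G01720) and WRKY53 (AT4G23810). The 1 NAC member was NAC014 (AT1G33060). RefSeq lists 67 genes with a WRKY symbol and 79 with a NAC symbol, so the values describe these members and not the families as wholes. Of the 13513 probe sets with 1 gene, 11934 have a locus name as symbol. Other WRKY and NAC genes can thus be on the array without being found by the rule.

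The series used 10 Affymetrix arrays in 5 groups of 2 to compare transcripts after induction of the cytochrome P450 KLU (CYP78A5). All plants, uninduced ones included, carried the klu-2 allele and an ethanol switch, in which AlcR under the 35S promoter acts on the AlcA promoter in front of KLU. The groups were wild-type KLU (35S::AlcR-AlcA::KLU; klu-2) after 0, 90 and 240 min of ethanol vapour, and mutant KLU (35S::AlcR-AlcA::KLUmut; klu-2), the study's control protein, after 90 and 240 min. The 2 arrays of a group came from separate transformants. Lines 3-1 and 4-3 carried the wild-type KLU construct, and lines 3-2 and 1-5 the mutant one. Each array held pooled inflorescences with young buds. The labels give no plant age. Mutant KLU had no uninduced array, so its 0 min comparisons set it against wild-type KLU lines, and no group had vapour without the switch. The level of KLU was not analysed here.

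WRKY proteins are plant transcription factors that bind the W-box through a WRKY domain with a zinc finger. Many are known for immune responses and leaf senescence, and several are themselves induced within minutes of stress. NAC proteins share an N-terminal DNA-binding domain and are known for organ boundaries, secondary walls and senescence. A subset is anchored in membranes until released by proteolysis. WRKY factors are sorted into groups by their domains: WRKY20 belongs to group I, WRKY6, WRKY42 and WRKY47 to group IIb, WRKY22 to group IIe and WRKY53 to group III.

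No member passed the test in any comparison. Values are log2 intensities made with RMA, in which 1 unit is a 2-fold difference, and the test was limma over all 22746 probe sets with a Benjamini-Hochberg adjusted p under 0.05. Over the 7 members and 8 comparisons of 2 groups there were 56 differences, of which 45 were under 0.5 log2 units in size and 4 were at least 1. Those 4 all belonged to WRKY53. In bulk tissue, fewer cells of a type and less RNA per cell cannot be told apart. The deposited table holds no detection calls, so a dim member cannot be called absent.

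The array medians lay between 5.93 and 6.05. None of the 13 floral genes and none of the 11 heat shock genes chosen as markers was measured under its name. A further 11 flower and meristem genes, among them SPT, INO and CLV3, were measured, and their mean lay between 4.49 and 4.79 on the 10 arrays. Of 31 pollen genes, 10 were found by name, and the others can be on the array under locus names.

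WRKY6 and WRKY42 are related factors, both known to bind the promoter of the phosphate exporter gene PHO1, and WRKY6 is also known from senescing leaves. With wild-type KLU, WRKY42 had 5.46, 4.69 and 4.04 at 0, 90 and 240 min in line 3-1 and 4.38, 4.55 and 3.86 in line 4-3. Mutant KLU arrays read 4.37 and 4.31 in line 3-2 at 90 and 240 min, and 4.52 and 4.22 in line 1-5. The 2 wild-type KLU arrays at 240 min were the lowest of all 10, and the uninduced array of line 3-1 was the highest.

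WRKY42 at 240 min of wild-type KLU differed from uninduced plants by -0.97 log2 units (SE 0.306, 95% interval -1.68 to -0.26, limma adjusted p 0.110). The change within each line was -1.42 in line 3-1 and -0.52 in line 4-3. Without the uninduced array of line 3-1, the difference was -0.43. Without that of line 4-3, it was -1.51 and passed the test, with a limma adjusted p of 0.0188, the remaining uninduced array being assumed to vary like the other groups. At 240 min of mutant KLU it differed from the same uninduced arrays by -0.66 (95% interval -1.37 to 0.06, limma adjusted p 0.691). Without line 3-1 at 0 min this WRKY42 difference was -0.115, and without line 4-3 at 0 min it was -1.195, neither past the test. Both differences share the uninduced arrays.

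WRKY6 had 4.56, 4.54 and 4.02 at 0, 90 and 240 min in wild-type KLU line 3-1 and 4.27, 4.04 and 3.80 in line 4-3. In mutant KLU plants the values were 4.25 and 4.11 in line 3-2 at 90 and 240 min, and 3.98 and 4.03 in line 1-5. Both uninduced arrays lay above the 4 mutant KLU arrays and above the 240 min wild-type KLU arrays, while the 90 min wild-type KLU arrays overlapped them. At 240 min of wild-type KLU, the difference from uninduced plants was -0.51 log2 units (SE 0.204, 95% interval -0.98 to -0.03, limma adjusted p 0.199). For mutant KLU at 240 min against the same uninduced plants it was -0.35 (limma adjusted p 0.790), and -0.20 without the uninduced array of line 3-1.

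The mean of the 11 flower and meristem genes was 4.49 in line 3-1 and 4.51 in line 4-3 at 240 min of wild-type KLU, against 4.77 in line 3-1 and 4.71 in line 4-3 at 0 min. Arrays were apart downward for 5 of the 11 and upward for 0, where 50.0% of all probe sets were apart in either direction. The median difference of the 11 was -0.25 log2 units, against -0.025 over all probe sets. Of the 11, 0 passed the test, where 6.82% of all probe sets did. Of the 10 pollen genes, TUA1 (1.99, limma adjusted p 0.00354) and AGL30 (1.73, limma adjusted p 0.0125) were higher at 240 min and ACT11 (-1.61, limma adjusted p 0.0456) was lower. Their part in the WRKY42 and WRKY6 values was not tested.

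WRKY47 is the other group IIb member. It had 4.56, 4.35 and 4.30 at 0, 90 and 240 min in wild-type KLU line 3-1 and 3.94, 3.94 and 4.27 in line 4-3. With mutant KLU it had 4.14 and 4.20 in line 3-2 at 90 and 240 min, and 4.13 and 4.57 in line 1-5. Its 2 uninduced arrays spanned nearly the whole range, and 240 minus 0 min was -0.26 in line 3-1 and 0.33 in line 4-3. Over the 8 comparisons its 95% intervals stayed between -0.67 and 0.80 log2 units.

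**Figure D1:**
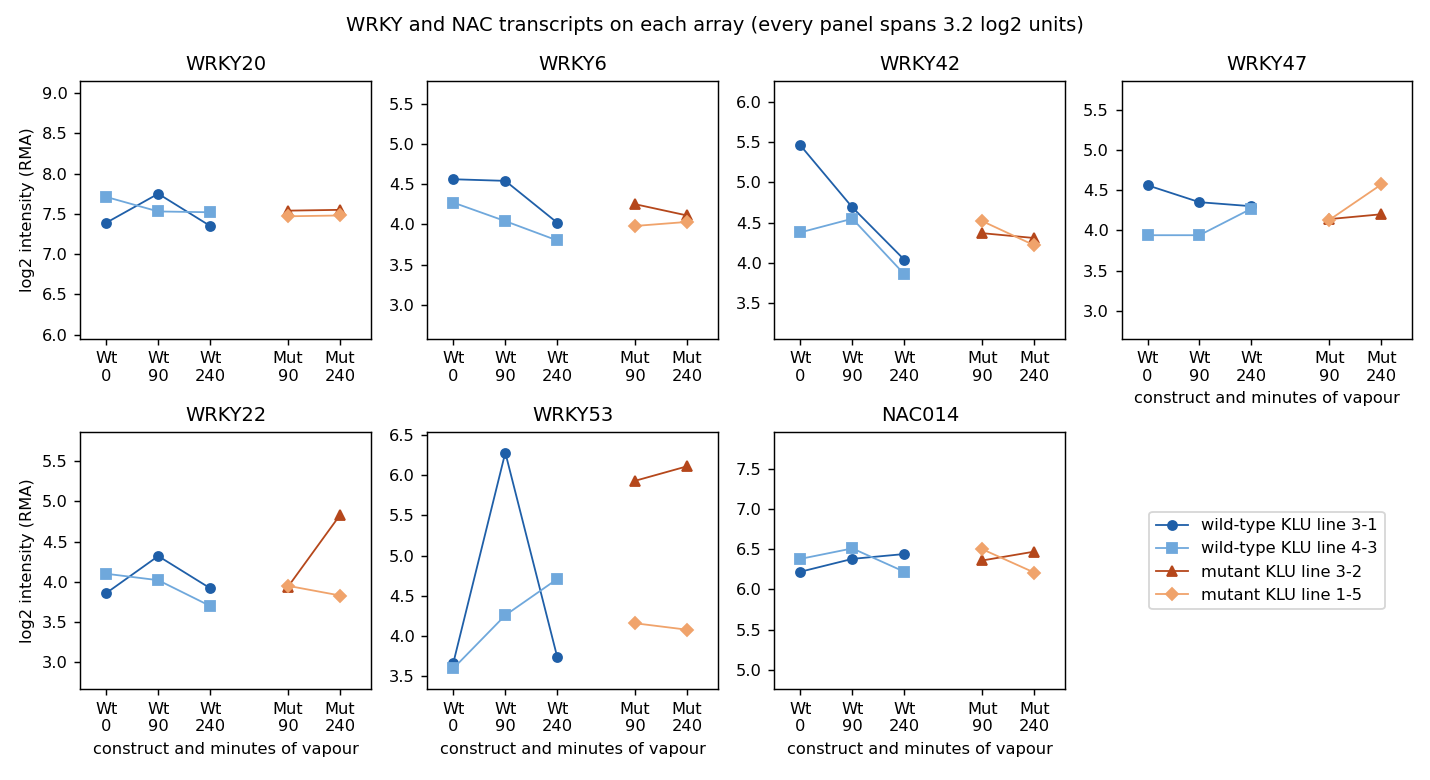
Log2 intensity of the 7 members on each of the 10 arrays. Groups run along the horizontal axis by construct and minutes of ethanol vapour, each symbol is 1 line, and all panels span the same number of log2 units. WRKY53 reached 6.28, 5.93 and 6.11 on 3 arrays and stayed at or below 4.71 on the others, while NAC014 lay between 6.21 and 6.51 throughout.

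WRKY53, a group III factor known as a regulator of leaf senescence and of defence, varied most among the members. With wild-type KLU it had 3.67, 6.28 and 3.74 at 0, 90 and 240 min in line 3-1 and 3.60, 4.26 and 4.71 in line 4-3. Mutant KLU line 3-2 had 5.93 and 6.11 at 90 and 240 min, and line 1-5 had 4.16 and 4.08. The high arrays were wild-type KLU line 3-1 at 90 min and mutant KLU line 3-2 at both times. Its range over the arrays, 2.68 log2 units, stood at percentile 97.1 of all probe sets, and its SD within groups, 1.11, at percentile 98.8.

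All 8 induced arrays of WRKY53 lay above both uninduced arrays, the smallest gap being 0.07 between 240 and 0 min in line 3-1. This split of the arrays was looked at after the values were seen. It held for 1 of the 7 members, and 9.83% of all probe sets were separated in this way in either direction. The 4 comparisons with the uninduced arrays share them, and none passed the test. WRKY53 differed by 1.64 log2 units at 90 min of wild-type KLU (SE 0.906, 95% interval -0.47 to 3.74, limma adjusted p 0.596) and by 0.59 at 240 min (95% interval -1.52 to 2.70, limma adjusted p 0.790). With mutant KLU it differed by 1.41 at 90 min (95% interval -0.70 to 3.52, limma adjusted p 0.906) and by 1.46 at 240 min (95% interval -0.65 to 3.57, limma adjusted p 0.807).

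Single arrays set the size of these WRKY53 differences. At 90 min of wild-type KLU it was 0.63 without line 3-1 and 2.65 without line 4-3. At 90 min of mutant KLU it was 0.53 without line 3-2 and 2.295 without line 1-5, and at 240 min it was 0.45 without line 3-2 and 2.48 without line 1-5. At 240 min, wild-type KLU against mutant KLU gave -0.87 (95% interval -2.98 to 1.24, limma adjusted p 0.846), and 0.15 without mutant line 3-2.

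WRKY22 belongs to group IIe and is known to act downstream of flagellin perception. With wild-type KLU it had 3.86, 4.32 and 3.92 at 0, 90 and 240 min in line 3-1 and 4.10, 4.02 and 3.70 in line 4-3. Mutant KLU arrays read 3.94 and 4.83 in line 3-2 at 90 and 240 min, and 3.95 and 3.83 in line 1-5. Mutant KLU line 3-2 at 240 min was the one array well above the others. Wild-type against mutant KLU at 240 min gave -0.52 log2 units (95% interval -1.22 to 0.18, limma adjusted p 0.580), and -0.02 without that array.

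WRKY20, a group I factor with 2 WRKY domains, stayed in a narrow band. It had 7.39, 7.75 and 7.35 at 0, 90 and 240 min in wild-type KLU line 3-1 and 7.71, 7.53 and 7.52 in line 4-3. In mutant KLU plants the values were 7.54 and 7.55 in line 3-2 at 90 and 240 min, and 7.47 and 7.48 in line 1-5. The 4 mutant KLU arrays lay within the spread of the uninduced pair. Its range of 0.40 log2 units stood at percentile 16.5 of all probe sets, and its 95% intervals over the 8 comparisons stayed between -0.56 and 0.49.

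NAC014 is counted among the NAC factors anchored in membranes, whose release is not read by transcript level. It had 6.22, 6.38 and 6.44 at 0, 90 and 240 min in wild-type KLU line 3-1 and 6.38, 6.51 and 6.22 in line 4-3. With mutant KLU it had 6.36 and 6.47 in line 3-2 at 90 and 240 min, and 6.50 and 6.21 in line 1-5. All 5 groups overlapped or met at a shared value. Its range of 0.30 log2 units stood at percentile 6.28 of all probe sets, and its 95% intervals over the 8 comparisons stayed between -0.47 and 0.50.

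Wild-type against mutant KLU is the comparison the study designed for KLU activity. At 240 min 0 of 7 members passed the test, where 1.13% of all probe sets did. An unadjusted limma p under 0.05 was reached by 0 members, against 13.0% of probe sets. All 7 members were lower with wild-type KLU, with a median of -0.16 log2 units against 0 over all probe sets. The values ran from -0.87 for WRKY53 to -0.01 for NAC014. The members were read on the same arrays, so their directions are not independent. Without mutant KLU line 3-2 at 240 min, WRKY53 was at 0.145 and WRKY22 at -0.02. For 2 members, WRKY42 and WRKY6, the arrays did not overlap, as was the case for 41.1% of probe sets. At 90 min all 7 were higher with wild-type KLU, with a median of 0.18 against -0.01 over all probe sets, and 0 passed, where 0.00440% of probe sets did. Again 0 members reached an unadjusted p under 0.05, against 5.86%, and the arrays were apart for 2 members, WRKY22 and WRKY42, against 27.7% of probe sets. The comparison of the time differences was 240 minus 90 min with wild-type KLU less the same with mutant KLU. It equals the 240 min difference between constructs less the 90 min one. Its negative sign in all 7 members was thus fixed by those differences and is no further result. The comparison had a median of -0.34 and passed for 0 members and 0% of probe sets. An unadjusted p under 0.05 was reached by 0 members and 2.65% of probe sets.

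Against uninduced plants, wild-type KLU at 90 min gave 0 of 7 members past the test, where 1.62% of probe sets passed, and 0 members with an unadjusted p under 0.05, where 11.6% had one. Only WRKY53 had arrays apart, against 34.0% of probe sets. At 240 min 0 members passed, where 6.82% of probe sets did, and 2 had an unadjusted p under 0.05, WRKY42 and WRKY6, where 22.1% of probe sets had one. Arrays were apart for 3 members, WRKY53 upward and WRKY42 and WRKY6 downward, against 50.0% of probe sets.

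With mutant KLU at 90 min, 0 members and 0.0396% of probe sets passed against uninduced plants, and 0 members and 6.60% had an unadjusted p under 0.05. Arrays were apart for 2 members, WRKY53 upward and WRKY6 downward, against 33.4%. At 240 min 0 members and 0.154% of probe sets passed, and 0 members and 7.76% had an unadjusted p under 0.05. Arrays were apart for WRKY53, WRKY42 and WRKY6, in the directions seen with wild-type KLU, against 37.5% of probe sets. The comparisons of both constructs share the uninduced arrays, so the shared directions are not independent. For WRKY42 the nearest arrays were 4.38 when uninduced and 4.31 with mutant KLU.

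Between times, 240 against 90 min of wild-type KLU gave 0 members and 0% of probe sets past the test, and 0 members and 10.2% of probe sets with an unadjusted p under 0.05. WRKY20, WRKY22, WRKY42 and WRKY6 were lower at 240 min with arrays apart, 4 of 7 members against 35.2% of probe sets, and the median over the members was -0.36. The largest of these was WRKY42, at -0.67 (95% interval -1.38 to 0.04, limma adjusted p 0.517). The separation was slight for WRKY20 and WRKY6, whose nearest arrays at 90 and 240 min were 7.53 and 7.52, and 4.04 and 4.02. With mutant KLU 0 members and 0% passed, and 0 members and 2.15% had an unadjusted p under 0.05. Arrays were apart for WRKY47 upward and WRKY42 downward, against 27.2% of probe sets. Over all 8 comparisons arrays were apart in 19 of the 56 cases. The share of all probe sets with arrays apart lay between 27.2% and 50.0% in these comparisons, which share arrays.

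**Figure D2:**
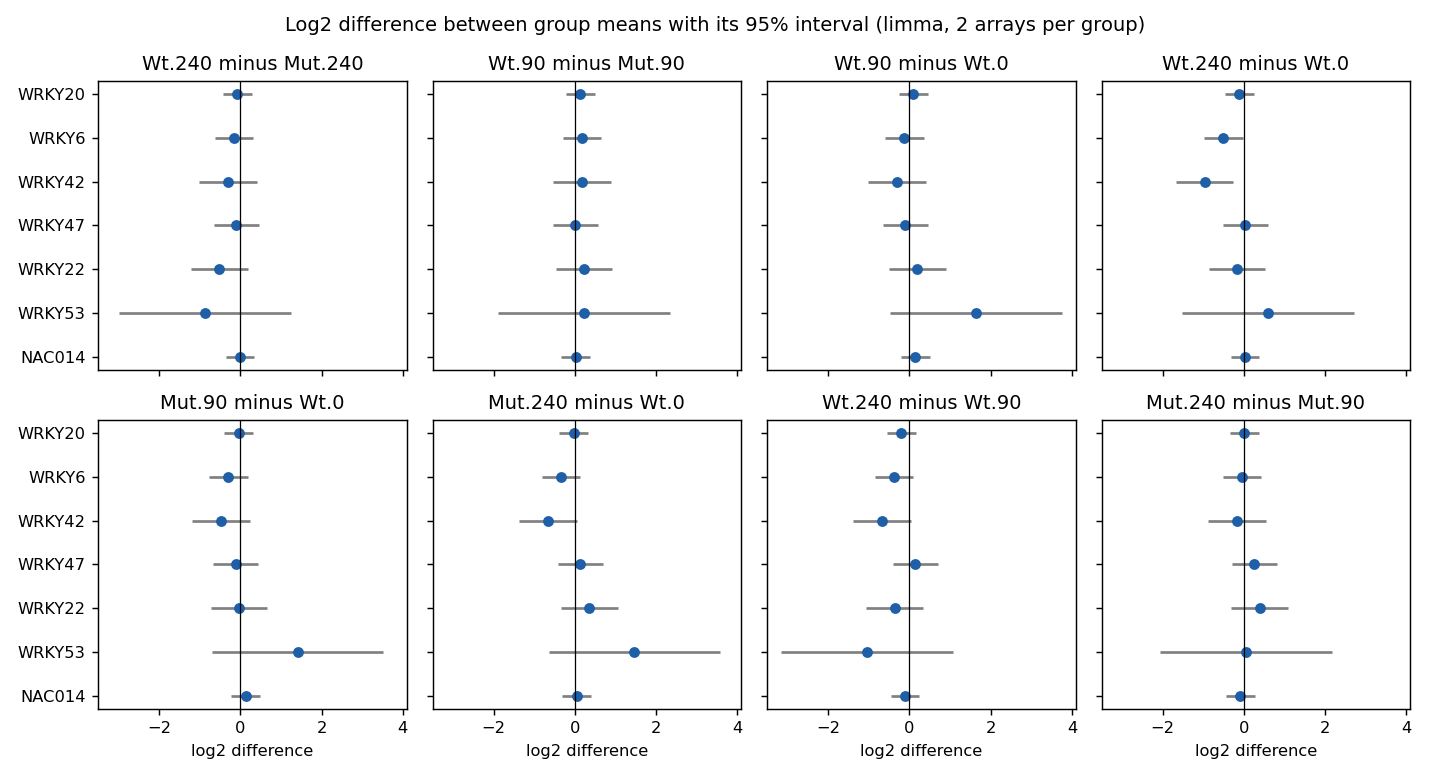
Log2 difference between group means for the 7 members in the 8 comparisons of 2 groups, with limma's 95% interval as the horizontal bar. Each group holds 2 arrays. The bars of WRKY42 and WRKY6 at 240 min of wild-type KLU against 0 min do not reach 0, and no member passes after adjustment over all probe sets.

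WRKY53 also differed between the lines of a construct. Mutant KLU line 3-2 was above line 1-5 by 1.77 at 90 min and 2.03 at 240 min, and in the fit with a line term the difference was 1.90 log2 units (SE 0.607, 95% interval 0.45 to 3.35, limma adjusted p 0.434). For wild-type KLU, line 3-1 minus line 4-3 was 0.07, 2.02 and -0.97 at 0, 90 and 240 min, so neither line was the higher one throughout. The mean of the 10 pollen genes with wild-type KLU was 5.70, 6.34 and 5.73 in line 3-1 at 0, 90 and 240 min, and 5.15, 5.39 and 5.29 in line 4-3. The 10 genes did not move together with time. From 0 to 240 min TUA1 changed by 1.87 in line 3-1 and 2.10 in line 4-3, and AGL30 by 1.58 and 1.88. Between the group means at these times, 3 of the 10 were higher at 240 min and 7 lower, with a median of -0.14 log2 units. Line 3-1 had the higher pollen mean at all 3 times, and its WRKY53 value was higher at 0 and 90 min and lower at 240 min. With mutant KLU the pollen mean was 5.78 in line 3-2 and 5.47 in line 1-5 at 90 min. At 240 min it was 5.48 in line 3-2 and 5.37 in line 1-5. The part of pollen in the WRKY53 values was not tested.

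Between the wild-type KLU lines, WRKY6 was higher in line 3-1 at every time, by 0.29, 0.50 and 0.22 at 0, 90 and 240 min. The fitted difference was 0.34 log2 units (95% interval 0.07 to 0.60, limma adjusted p 0.143). WRKY47 gave 0.35 (limma adjusted p 0.223) and WRKY42 0.47 (limma adjusted p 0.228). The line difference of WRKY42 was 1.08 at 0 min, 0.14 at 90 min and 0.18 at 240 min. Between the same lines all 10 pollen genes were higher in line 3-1 in the fit, with a median of 0.50, and 3 of them passed the test. Their part in the line differences of WRKY6, WRKY47 and WRKY42 was not tested. For the wild-type KLU lines 0 of 7 members passed, where 4.40% of probe sets did, and 1, WRKY6, had an unadjusted p under 0.05, where 22.7% did. For the mutant KLU lines 0 members and 0% of probe sets passed, and 1 member, WRKY53, had an unadjusted p under 0.05, where 9.74% of probe sets had one.

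**Figure D3:**
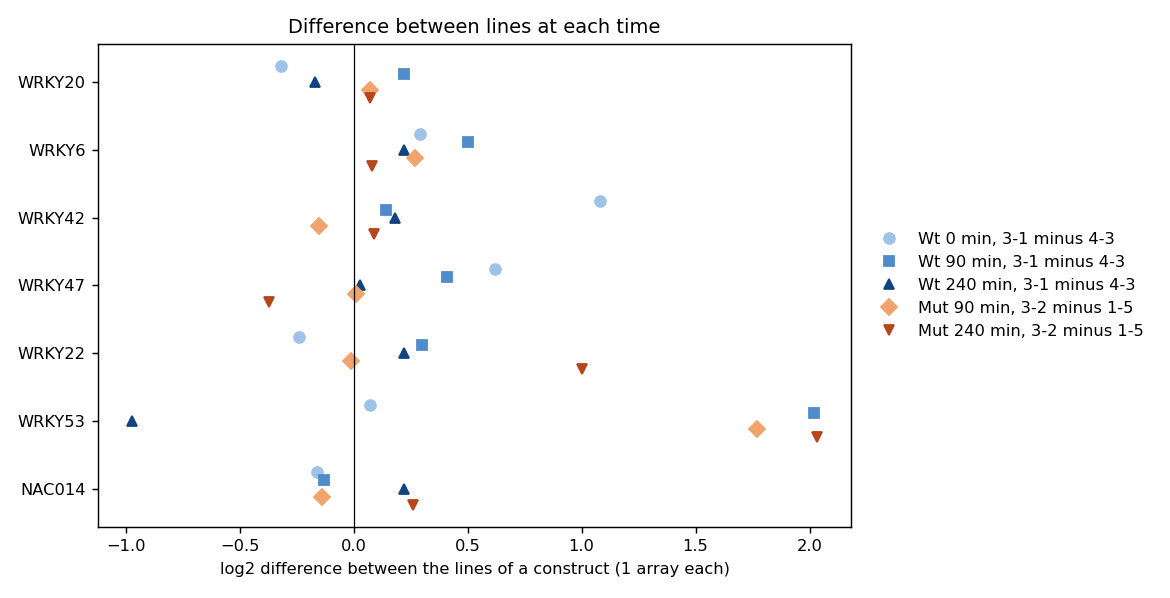
Log2 difference between the 2 lines of a construct for each member at each time, line 3-1 minus line 4-3 for wild-type KLU and line 3-2 minus line 1-5 for mutant KLU. Each point is 1 array minus 1 array. WRKY53 differed by 2.02, 1.77 and 2.03 at 3 of the 5 points, and all 5 points of WRKY6 lie above 0.

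Genes that work around these factors were read from lists. Of the defence, early stress, senescence and secondary wall lists, only SAG101, PDF1.2, STZ, CML38, SAG29 and IRX10 (listed as GUT2) were found by name. Of these genes, 0 passed in any comparison, where 0% to 6.82% of all probe sets did. STZ (ZAT10) encodes a zinc finger repressor that is induced early in many stresses. It had 4.15, 7.07 and 6.10 at 0, 90 and 240 min in wild-type KLU line 3-1 and 3.60, 4.03 and 8.52 in line 4-3. Mutant KLU line 3-2 had 6.23 and 6.77 at 90 and 240 min, and line 1-5 had 4.81 and 4.78. The 3 arrays on which WRKY53 was high were also above 6 for STZ, and so were both wild-type KLU arrays at 240 min, where WRKY53 was at 3.74 and 4.71. STZ at 240 min of wild-type KLU differed from uninduced plants by 3.44 log2 units (95% interval 0.66 to 6.21, limma adjusted p 0.142).

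**Figure D4:**
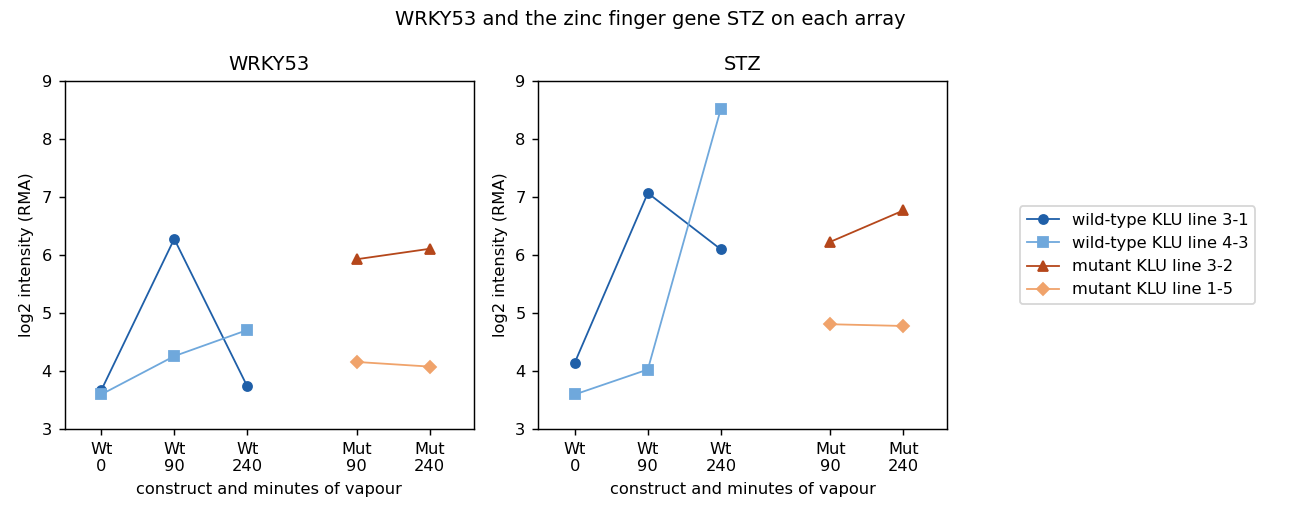
Log2 intensity of WRKY53 and of STZ on each of the 10 arrays, by construct and minutes of ethanol vapour, with 1 symbol per line. Mutant KLU line 3-2 is above line 1-5 for both genes at both times, and line 4-3 at 240 min has 8.52 for STZ and 4.71 for WRKY53.

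A list of 23 immune and defence signalling genes includes STZ, CML38, SAG101 and PDF1.2. In the 8 comparisons of 2 groups 0 of the 23 passed the test, where 0% to 6.82% of all probe sets did. Against uninduced plants the medians of the list with wild-type KLU were 0.24 at 90 min and 0.20 at 240 min. With mutant KLU they were 0.17 at 90 min and 0.23 at 240 min, where those of all probe sets were between -0.03 and -0.02. All of these medians share the uninduced arrays, so they are not independent. The mean of the list was 4.91 in line 3-1 and 4.71 in line 4-3 when uninduced. On the induced arrays it lay between 4.92 and 5.26. Between the wild-type KLU lines 3 of the 23 passed, all higher in line 3-1, where 4.40% of all probe sets passed in either direction and the 10 pollen genes were higher too. They were the thionin gene THI2.1 (2.82 log2 units, limma adjusted p 0.00449), the calmodulin-like gene CML42 (1.19, limma adjusted p 0.0254) and WES1 (1.16, limma adjusted p 0.0184), which encodes an enzyme that conjugates auxin to amino acids. The 6 senescence-associated genes had 0 past the test in every comparison, and so did the 9 probe sets for membrane-tethered bZIP factors and the endoplasmic reticulum stress response. Of all probe sets, 0% to 6.82% passed by comparison, so counts of 0 in lists this small are near that share.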

How the data were processed

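The deposited values are log2 intensities with 2 decimals and were used unchanged. The authors made them with RMA, according to the submitters' processing notes. Of 22810 probe sets, 64 controls were left out. All 10 columns matched a sample title and 0 belonged to no sample. Symbols come from the platform's gene table, which can be old, and loci from RefSeq (TAIR10.1). Group means over all 10 arrays were fitted with limma 3.58.1 in R 4.3.3, two-sided, and adjusted over 22746 probe sets. Replicates are transformed lines. Lines recur at each time, so arrays are paired by line: line differences correlated across probe sets at 0.633, 0.475 and 0.606 between the wild-type KLU times, and at 0.348 between the mutant KLU times. No label gives a batch. Named members are, per comparison, up to 12 past the threshold or else the 5 with the smallest p, those at the ends of each family by level, those with the largest line differences, and up to 4 per role list. The members and lists were chosen with earlier results of these data known. The fit was tested on simulated data. Figures used matplotlib 3.10.9.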

Additional observations from a re-analysis of the deposited data

How the results depend on the processing

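The alternatives were the replicate block, a fit of 2 groups by themselves, variances that were trended and robust, a filter at the median level, quantile normalization, a 2-fold minimum and leaving out each array. They gave 172 counts of members past the threshold, of which 171 were 0. The counts with the 2-fold minimum could only be 0, since it was added to the main fit, whose counts were 0. Those above the median level covered only 2 members. With each array left out in turn, the count at 240 min of wild-type KLU against 0 min ranged between 0 and 1, the 1 being WRKY42 without line 4-3 at 0 min. Pairing by line in the replicate block left that count at 0, with an adjusted p of 0.0504 for WRKY42 (-0.97) and 0.0604 for WRKY6, and changed no other call. For WRKY42 the fit of the 2 groups by themselves gave an adjusted p of 0.289. Of 1072 member values under an alternative, 68 had the other sign, the largest by its value as reported being WRKY53 at 240 min between the constructs (-0.87, and 0.145 without mutant KLU line 3-2), and 49 moved by more than the spread within groups. Above the median level only WRKY20 and NAC014 remained, so the dimmer members were not tested there. With 2 arrays per group, small differences are not measured well.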

Other observations

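ZAP1 (AT2G04880), which RefSeq also calls WRKY1, is a WRKY gene that the symbol rule did not include. It had 8.19, 8.20 and 8.08 at 0, 90 and 240 min in wild-type KLU line 3-1 and 8.22, 8.08 and 7.80 in line 4-3. With mutant KLU it had 8.44 and 8.31 at 90 and 240 min in line 3-2 and 8.15 and 8.06 in line 1-5. Its difference at 240 min of wild-type KLU against uninduced plants was -0.27 log2 units (95% interval -0.65 to 0.12, limma adjusted p 0.415).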
